A study of Homo sapiens with 15 samples.

Results

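MRC5, a line of human lung fibroblasts, and H196, a small cell lung cancer (SCLC) line of the non-neuroendocrine (non-NE) kind, were compared as each grew alone. The comparison used 6 of the 15 RNA-seq libraries of the study, the 3 labelled as mono-cultured MRC5 cells (MRC5_Mo) and the 3 labelled as mono-cultured H196 cells (H196_Mo). No drug, transgene or partner cell was given to either group, and RNA was taken after 7 days of culture. Each group is 1 cell line from 1 donor. MRC5 cells grew in MEM and H196 cells in RPMI medium, each with 10% serum, and the deposited values of the lines stand in separate tables, so line, donor, medium and table cannot be told apart. Another 6 libraries came from the same lines kept on either side of an insert with pores of 0.4 µm, with MRC5_CoH196 for the fibroblasts and H196_Co for the cancer cells, and they gave a second comparison of the lines. The sources do not say that the 3 libraries of a group came from separate cultures, so the p-values measure only the spread between these libraries.

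Fibroblasts build the extracellular matrix. They secrete collagens, fibronectin and proteoglycans, cross-link them with lysyl oxidases, pull on them with actin and myosin, and read growth factors through receptors such as the PDGF receptors. SCLC cells usually carry a neuroendocrine programme driven by factors such as NEUROD1, and the non-NE kind has lost most of it and often relies on YAP1, REST and NOTCH signalling. Cancer cells can also express cancer-testis antigens, genes that in healthy adults are largely kept to the germ line. HOX genes lie in 4 clusters whose order along the chromosome follows the body axis, and cultured cells tend to keep the HOX pattern of their place of origin.

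The libraries held 18554505 to 18817195 counts in MRC5_Mo and 16073597 to 17358349 in H196_Mo, so that 3 counts were worth 0.159 to 0.162 CPM (counts scaled to the library total) in the fibroblasts and 0.173 to 0.187 CPM in the cancer cells. Intervals and floors given below cover counting error only. On log2 CPM, libraries of 1 line correlated across genes at 0.995 to 0.996 and libraries of different lines at 0.607 to 0.616. The labels were checked against marker genes. MRC5_Mo expressed collagens, THY1, PDGFRA and PDGFRB, which define fibroblasts. In H196_Mo, the neuroendocrine regulator NEUROD1 held at most 4 counts in any library, NCAM1 held 0 in all 3, and YAP1 and REST were present at 41.5 ± 3.84 and 6.67 ± 0.471 FPKM (fragments scaled to transcript length and library total; mean ± SD, n = 3 here and below). The epithelial cadherin CDH1 held 0 counts in all 6 libraries and EPCAM held 1 to 6. Of the markers of endothelial, blood and other cells, only CD68, which fibroblasts also express, had enough counts to be tested, and PECAM1, CDH5 and PTPRC held 0 to 3 counts in every library.

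The lines differed in most of the genes they expressed. Of 13518 genes tested with edgeR's quasi-likelihood test, 4172 were higher in MRC5_Mo (30.9%) and 4241 were higher in H196_Mo (31.4%), once a log2 fold change beyond 0.58 in either direction and p under 0.05 after Benjamini-Hochberg adjustment were both required. Such genes are called differentially expressed genes (DEGs). Strong differences, with a log2 fold change above 3, numbered 1217 in MRC5_Mo (9.00%) and 1032 in H196_Mo (7.63%). In 88.2% of tested genes the libraries of the lines did not overlap in CPM on the fitted scale. The split of DEGs between the lines depended on how libraries were scaled. With TMM factors 49.6% of the DEGs were higher in MRC5_Mo and the median log2 fold change of all tested genes was −0.02. On library totals alone the median moved to −0.46 and 32.3% of the DEGs were higher in MRC5_Mo, while upper-quartile factors gave −0.26 and 39.3%. On log2(FPKM + 1) values, tested with limma, 32.9% were higher in MRC5_Mo. FPKM levels below follow library totals and fold changes follow TMM factors, so a modest difference may have another size on each scale.

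**Figure D1:**
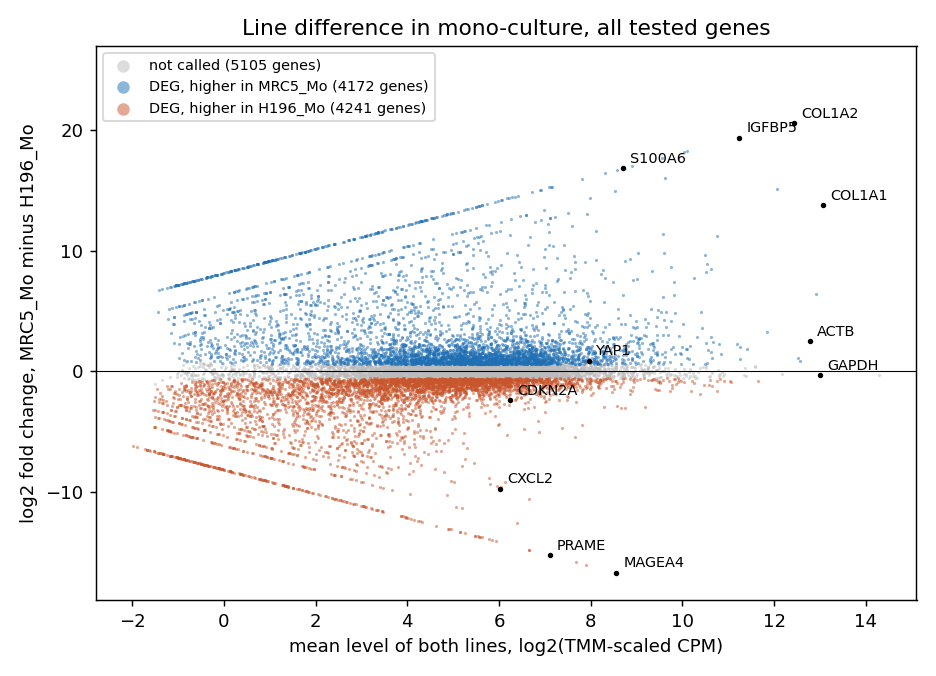
Difference between the lines (y axis, log2 fold change of MRC5_Mo minus H196_Mo) against the mean level of both lines (x axis, log2 of TMM-scaled CPM) for all 13518 tested genes, 1 point per gene. DEGs lie on both sides of 0, 4172 above and 4241 below, with COL1A2 near the top and MAGEA4 at the bottom, and the straight edges are genes at 0 counts in 1 line, whose fitted values depend on the prior count and bound nothing.

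Some genes were on in one line and at the floor in the other, with at least 10 CPM in each library of one line and at most 3 counts in each library of the other. There were 250 such genes in MRC5_Mo, which is 1.46% of the 17138 genes of the joined tables, and 124 in H196_Mo, which is 0.724%. The other line held 0 counts in all 3 libraries for 117 of the 250 and for 62 of the 124. The fibroblast set also reached higher levels, with mean values from 10.5 to 11000 CPM and a median of 39.8 CPM, against 10.2 to 753 CPM and a median of 20 CPM for the cancer-cell set. Of the 250 genes, 85 were not listed in the H196 table and were taken as 0 counts. Of the 124, 2 were not listed in the MRC5 table. Genes too low in both lines were not tested, and a gene kept by its level in 1 line only had to differ, so the counts per list below describe the lists and test nothing. Each count is to be read beside the shares over all tested genes, 30.9% higher in MRC5_Mo and 31.4% higher in H196_Mo.

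Collagens held the genes with the largest differences. Each of the 18 collagen genes on the list was higher in MRC5_Mo, beside 30.9% of all tested genes, and all 18 were strong differences, with a median log2 fold change of 10.59, or 9.35 with genes at 0 set to their bound. Summed over the list, they made 7730 ± 393 FPKM in MRC5_Mo and 54.9 ± 3.08 FPKM in H196_Mo. COL1A1 and COL1A2 encode the chains of type I collagen, the main fibril of connective tissue. COL1A1 (chr17:50184096-50201649, GRCh38) held 288893, 277947 and 263804 counts in MRC5_Mo and 17, 29 and 26 in H196_Mo, a log2 fold change of 13.78 (SE 0.11, adjusted p = 1.8e-25). COL1A2 (chr7:94394895-94431227) held 188753, 179563 and 162592 counts in MRC5_Mo and 0 in each H196_Mo library, at least 72300-fold higher. All 3 fibroblast libraries lay far above all 3 cancer-cell libraries for both chains. COL3A1, which forms fibrils together with type I collagen, held 27619, 24962 and 23427 counts against 0, 1 and 0, a ratio of 93200 with a 95% counting interval from 16700 to 3680000.

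Among the collagens, the microfibril chains of type VI collagen did not move as a unit. COL6A3 held 143173, 135654 and 130164 counts in MRC5_Mo against 3, 8 and 3 in H196_Mo (log2 fold change 15.09, SE 0.13, adjusted p = 1.8e-25). COL6A1 held 1017, 1290 and 1224 counts in H196_Mo and COL6A2 held 1585, 1877 and 1797, and their log2 fold changes were 4.48 (SE 0.07) and 4.89 (SE 0.066). The cancer cells held counts of all 3 chains, with COL6A3 at 0.0367 ± 0.0153 FPKM and COL6A2 at 33.4 ± 1.56 FPKM. COL12A1, a collagen that binds to fibril surfaces, also kept a level above the floor in H196_Mo, at 2.78 ± 0.0819 FPKM against 161 ± 9.51 FPKM.

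The basement membrane collagens COL4A1 and COL4A2 sit head to head on chromosome 13 and share the stretch between their starts. COL4A1 held 25087, 24422 and 22502 counts in MRC5_Mo and COL4A2 held 36465, 36001 and 33638. Neither gene was listed in the H196 table, where both were taken as 0 counts, so they were at least 9810-fold and at least 14400-fold higher in MRC5_Mo. The 126 bases between the starts (RefSeq, GRCh38.p14, chr13:110307158-110307283, plus strand) are shown because both genes of the pair had the same on and floor pattern.
COL4A1-COL4A2: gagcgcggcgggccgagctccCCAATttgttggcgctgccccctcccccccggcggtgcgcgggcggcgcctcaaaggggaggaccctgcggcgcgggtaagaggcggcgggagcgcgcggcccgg
The capitals mark a CCAAT box, the letters that the factor NF-Y binds. The stretch holds 20 CG pairs. CCAAT, searched on both strands, was present in 32% of all 35097 promoter windows of 250 bases before a start, so that its presence here is a description only.

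Other matrix proteins and the enzymes that cross-link them followed the collagens. All 21 of the tested genes on this list were higher in MRC5_Mo, beside 30.9% of all tested genes, 20 of them as strong differences. The median log2 fold change was 8.40 (8.32 at the bound), with a summed level of 4600 ± 142 against 108 ± 2.83 FPKM. Another 2 members, MFAP5 and ASPN, had too few counts to be tested. FN1, which encodes fibronectin, held 253523, 246521 and 235338 counts in MRC5_Mo against 3284, 3575 and 4001 in H196_Mo (log2 fold change 6.38, SE 0.078, adjusted p = 7.45e-24). It was the matrix protein with the highest level in the fibroblasts on this list, at 1690 ± 53.3 FPKM, and was still at 27.5 ± 1.94 FPKM in the cancer cells. SPARC, a collagen-binding glycoprotein, reached 938 ± 33.6 FPKM against 0.54 ± 0.07 FPKM. The proteoglycans decorin (DCN, log2 fold change 11.41) and lumican (LUM, 4247, 3800 and 3504 against 1, 1 and 0 counts) coat collagen fibrils, and biglycan (BGN) was on in MRC5_Mo and not listed for H196. FBLN1 had the smallest difference of the list, 1.89, with 31.1 ± 0.953 FPKM in H196_Mo. LOX and LOXL2 oxidise lysines to cross-link collagen. LOX differed by 8.40 and LOXL2 by 3.64 on the log2 scale, and LOXL2 kept 29.7 ± 1.19 FPKM in H196_Mo.

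Surface markers of fibroblasts divided into those that separated the lines and those shared by both. Of 13 tested markers, 11 were higher in MRC5_Mo, 1 was higher in H196_Mo and 1 did not pass. The shares over all tested genes were 30.9% and 31.4%. THY1, a classical fibroblast surface protein, held 12413, 12105 and 12094 counts in MRC5_Mo and was not listed for H196, at least 4990-fold higher. PDGFRA held 5254, 4590 and 4475 counts against 0, 0 and 2, and PDGFRB held 6433, 6146 and 5866 against 1, 3 and 1. These receptors for platelet-derived growth factors had ratios of 8780 (95% counting interval 2430 to 72500) and 4520 (1940 to 13900). FAP, a serine protease of activated fibroblasts, held 1568, 1400 and 1417 counts against 0, 1 and 1.
Vimentin (VIM), the intermediate filament of mesenchymal cells, was abundant in both lines at 4160 ± 122 and 3150 ± 143 FPKM. It held 120334, 126145 and 125612 counts against 80965, 90920 and 82474, and its log2 fold change of 0.84 fell to 0.40, below the limit, on library totals alone. NT5E, the surface enzyme CD73, held 9574 to 10185 counts in MRC5_Mo and 11530 to 12199 in H196_Mo and did not pass (log2 fold change 0.05). Its groups overlapped in CPM on the fitted scale. MME, the peptidase CD10, went the other way with 659, 691 and 589 counts against 3089, 2958 and 2965 (log2 fold change −1.92).

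Transcription factors of the mesenchyme were mostly higher in MRC5_Mo, 17 of the 19 tested among 22, and 2 were higher in H196_Mo. The shares over all tested genes were 30.9% and 31.4%. The median log2 fold change of the list was 3.27. The lung mesenchyme factors FOXF1, FOXF2 and TBX5 were on in MRC5_Mo and not listed for H196. FOXF1 held 3480, 3461 and 3233 counts and was at least 1390-fold higher. SNAI2 represses epithelial genes and held 1366, 1494 and 1378 counts against 0, 1 and 1. TCF21, a factor of lung fibroblast precursors, held 675, 705 and 642 counts against 0, 1 and 2. The drivers of epithelial-mesenchymal transition ZEB1 (28.8 ± 0.704 against 9.18 ± 0.437 FPKM), ZEB2 and TWIST1 were expressed in H196_Mo as well. TWIST1 differed by 0.75, and by 0.31 on library totals alone, which is below the limit. GATA6 (119, 81 and 94 against 354, 296 and 337 counts) and HAND2 were the 2 factors higher in H196_Mo.

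**Figure D2:**
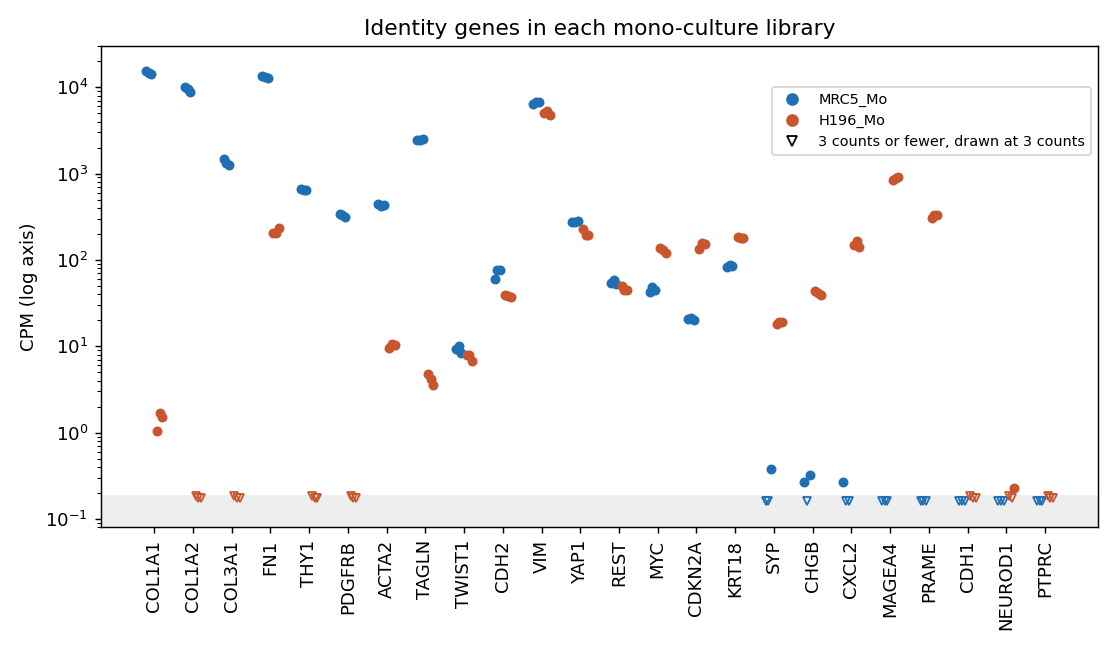
CPM in each of the 6 libraries (y axis, log axis, 1 point per library) for genes that mark fibroblasts, SCLC cells or other cell types (x axis), with open triangles in the grey band for libraries of 3 counts or fewer, drawn at the level of 3 counts. The MRC5_Mo points of COL1A2, COL3A1 and THY1 stand far above the band that holds the H196_Mo points, MAGEA4 and PRAME show the opposite order, and YAP1, REST and VIM lie close together in both lines.

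Contractile genes of smooth muscle and myofibroblasts were higher in MRC5_Mo for all 14 tested members, beside 30.9% of all tested genes. Their median log2 fold change was 5.51 (5.06 at the bound) and their sum was 5970 ± 7.02 against 879 ± 41.4 FPKM. ACTA2, smooth muscle actin, held 8280, 7840 and 7989 counts against 154, 182 and 178 (log2 fold change 5.85). TAGLN, an actin-binding protein, held 45978, 46105 and 47059 against 76, 72 and 62 (log2 fold change 9.66). Both genes were well above the floor in each line, and no H196_Mo library came near the lowest MRC5_Mo library. ACTG2 held 7809, 7799 and 7643 counts against 1, 0 and 2. The tropomyosins TPM1 and TPM2, which cells of many kinds use, had smaller log2 fold changes of 2.58 and 2.88, with TPM2 at 445 ± 40.3 FPKM in H196_Mo. MYH11, the myosin of mature smooth muscle, held only 16, 11 and 14 counts in MRC5_Mo.

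Cell adhesion genes were higher in MRC5_Mo for 12 of the 13 tested among 16, beside 30.9% of all tested genes. Their median log2 fold change was 4.76, and ICAM1 did not pass. CDH11, the cadherin of mesenchymal cells, held 4645, 4451 and 4430 counts and was not listed for H196, at least 1840-fold higher. CDH2, or N-cadherin, was expressed in both lines at 1131, 1444 and 1426 counts against 635, 659 and 640 (log2 fold change 1.34, SE 0.078). CD44, a receptor for the matrix sugar hyaluronan, was at 595 ± 19.9 and 171 ± 8.06 FPKM. ICAM1 held 1430, 1219 and 1276 counts against 1378, 1550 and 1464, with a log2 fold change of 0.13.

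The 10 most abundant genes at the floor in H196_Mo held 4 collagens, COL1A2, COL3A1, COL4A1 and COL4A2, together with THY1, IGFBP5, GREM1, CD248, S100A6 and LBH. IGFBP5 binds insulin-like growth factors in the matrix and held 84662, 75323 and 71756 counts against 0 in each H196_Mo library, at least 31600-fold. GREM1, a secreted antagonist of bone morphogenetic proteins, was at 440 ± 16.9 FPKM and at least 13700-fold higher. S100A6, a small calcium-binding protein, reached 4520 ± 80.3 FPKM in MRC5_Mo from 13793, 13327 and 13075 counts. It was not listed for H196 and was the only gene among the 10 highest in MRC5_Mo that was at the floor in the other line. Among genes with a few counts left in H196_Mo, GPX1, an antioxidant enzyme of most cells, was at 400 ± 13.3 against 0.37 ± 0.121 FPKM (log2 fold change 10.42), and FST, which binds activin, was at 145 ± 11.2 against 0.137 ± 0.0451 FPKM (10.46).

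In the other direction, cancer-testis antigens held the most abundant genes at the floor in MRC5_Mo. Of 23 genes on the list 16 were listed and 14 tested. All 14 were higher in H196_Mo, beside 31.4% of all tested genes, and 12 of them were on there and at the floor in MRC5_Mo. The summed level was 5930 ± 365 FPKM in H196_Mo and 0.05 ± 0.0557 FPKM in MRC5_Mo, and the median log2 fold change was −13.47, or −8.99 with genes at 0 set to their bound. MAGEA4 held 13374, 15597 and 15579 counts in H196_Mo and 0 in each MRC5_Mo library, at least 4030-fold higher in H196_Mo. PRAME, a substrate adaptor of a ubiquitin ligase, held 4882, 5725 and 5676 counts against 0, at least 1470-fold. CTAG1B, which encodes the antigen NY-ESO-1, held 1477, 1549 and 1312 counts against 1, 0 and 0, a ratio of 3540 with a 95% counting interval from 635 to 140000. No gene of the list held more than 1 count in any MRC5_Mo library.
The GAGE genes are near-identical copies on the X chromosome, as are several MAGEA genes, so the split of counts between copies is uncertain. GAGE2A held 8010, 9768 and 10316 counts and GAGE1 held 6405, 8701 and 8980, against 0 in MRC5_Mo. At 1990 ± 144 and 1920 ± 220 FPKM they had the highest levels on the list.
Of the genes on in H196_Mo that could be placed on a chromosome, 28 of 119 lay on chromosome X, or 23.5%. That compares with 5.11% of 235 genes on in MRC5_Mo and 3.97% of all 16058 placed genes. The GAGE, MAGEA and CT45A1 genes contribute several neighbouring copies to this share.

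The 250 bases before the first of the 5 listed starts of MAGEA4 (RefSeq, GRCh38.p14, chrX:151912224-151912473, plus strand) are shown because MAGEA4 had the most counts among the genes on in H196_Mo and at the floor in MRC5_Mo.
MAGEA4: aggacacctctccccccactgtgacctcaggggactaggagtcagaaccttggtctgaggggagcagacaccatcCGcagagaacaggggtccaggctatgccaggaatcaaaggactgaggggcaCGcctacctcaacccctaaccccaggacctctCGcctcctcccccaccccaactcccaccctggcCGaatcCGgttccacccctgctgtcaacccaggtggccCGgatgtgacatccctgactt
The capitals mark its 6 CG pairs, the sites at which DNA can be methylated, and methylation was not measured here. The median over all promoter windows was 11 CG pairs, against 18 over windows of genes in the joined data, 10.5 over genes on in MRC5_Mo and 13.5 over genes on in H196_Mo. Windows were found for 163 of the 250 and 93 of the 124 genes.

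Other genes on in H196_Mo came from signalling, metabolism and germ-line functions. TGFA, a ligand of the EGF receptor, held 3282, 3298 and 3256 counts against 0, 1 and 0 (ratio 8020, 95% counting interval 1440 to 317000). GLDC, an enzyme of glycine breakdown, was at 40.7 ± 1.54 against 0.04 ± 0.01 FPKM. RIPK4, a kinase of epithelial cells, held 2157, 2615 and 2523 counts against 0 and was at least 660-fold higher. TDRD12 and TDRD9 act in the germ line with small RNAs that silence transposons. They were at 51 ± 2.67 and 36.8 ± 1.42 FPKM in H196_Mo and at 0.0233 ± 0.0115 and 0.04 ± 0.0173 FPKM in MRC5_Mo. TDRD9 was not at the floor in MRC5_Mo by the rule above, with 4, 1 and 3 counts there.

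The chemokine CXCL2, which draws neutrophils, had the largest difference in favour of H196_Mo among genes with a mean of at least 10 CPM there and more than 3 counts in at least 1 MRC5_Mo library. It held 2389, 2845 and 2441 counts in H196_Mo and 5, 1 and 1 in MRC5_Mo, a ratio of 893 (95% counting interval 434 to 2220), with 181 ± 12.7 against 0.147 ± 0.15 FPKM. Its neighbours in the same chemokine cluster held few counts. CXCL1 held 11, 10 and 8 counts in H196_Mo against 3, 0 and 5 in MRC5_Mo, and CXCL3 held 7, 6 and 11 against 3, 2 and 2. CXCL8 was higher in MRC5_Mo, with 22, 32 and 28 counts against 0, 0 and 1, a ratio of 101 with a 95% counting interval from 18 to 3970.
The 250 bases before the start of CXCL2 (RefSeq, GRCh38.p14, chr4:74099196-74099445, minus strand) are shown because its neighbours held far fewer counts in H196_Mo.
CXCL2: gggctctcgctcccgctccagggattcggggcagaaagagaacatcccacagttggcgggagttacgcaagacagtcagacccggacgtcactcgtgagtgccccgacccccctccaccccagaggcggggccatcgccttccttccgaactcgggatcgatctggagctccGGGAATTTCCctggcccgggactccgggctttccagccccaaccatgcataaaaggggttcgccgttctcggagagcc
The capitals mark a match to the NF-κB motif, searched on both strands with any base allowed at 2 of its letters and present in 1.73% of all promoter windows and 1.82% of those of genes in the joined tables. It is a match of letters, and binding was not measured. Whether the promoters of the neighbours hold the motif was not examined, so the match is not known to be particular to CXCL2.

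Other cytokines were mostly higher in the fibroblasts. Of 24 genes 12 were tested, and 9 were higher in MRC5_Mo, beside 30.9% of all tested genes. CXCL2 and TGFB3 were higher in H196_Mo, and TGFB2 did not pass. CXCL12, which retains blood cells in tissue, held 868, 1065 and 1122 counts in MRC5_Mo and was not listed for H196, at least 416-fold. IL6 held 80 counts in each MRC5_Mo library and 0 in each H196_Mo library, at least 32.7-fold. CCL2, which draws monocytes, held 476, 444 and 437 counts against 15, 13 and 17. Every MRC5_Mo library exceeded every H196_Mo library for these 3 genes. In either direction, 88.2% of all tested genes had no overlap. CSF1, the growth factor of macrophages, differed by 4.28 and TGFB1 by 1.41 on the log2 scale.

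HOX genes set the lines apart in both directions. Of 39 genes 36 were listed and 29 tested. Of these, 6 were higher in MRC5_Mo and 21 in H196_Mo, beside 30.9% and 31.4% of all tested genes. Another 2 did not pass, and the median log2 fold change was −2.19. All 9 tested genes of paralog groups 9 to 13, the posterior end of the clusters, were higher in H196_Mo. Of the 20 tested genes of groups 1 to 8, 6 were higher in MRC5_Mo and 12 in H196_Mo. HOXB9 held 393, 443 and 446 counts in H196_Mo against 0 in MRC5_Mo, at least 116-fold, and HOXC10 held 395, 451 and 409 against 0 or 1. HOXA9 was at 9.8 ± 0.562 against 0.19 ± 0.0346 FPKM (log2 fold change −5.22). The highest of these 9 genes in MRC5_Mo was HOXC9, at 0.207 ± 0.0709 FPKM.
The genes higher in MRC5_Mo were HOXA2, HOXA3, HOXA5, HOXB3, HOXB5 and HOXB6, all from the anterior and middle parts of clusters A and B. HOXB5 was at 26.6 ± 0.866 against 6.5 ± 0.382 FPKM (log2 fold change 2.47, SE 0.076), and HOXA5, a gene of lung development, was at 7.37 ± 0.945 against 3.29 ± 0.381 FPKM (1.61). HOXB3 differed by 0.87, and by 0.43 on library totals alone, below the limit. HOXB2, HOXB4 and HOXB7, from the same cluster as HOXB5, were higher in H196_Mo, HOXB4 at 37 ± 2.55 against 6.28 ± 0.223 FPKM.
By cluster, the summed level was 18 ± 1.04 against 35.9 ± 1.85 FPKM for A, 134 ± 3 against 204 ± 7.14 for B and 2.99 ± 0.105 against 56.2 ± 1.92 for C. Cluster D held 0 FPKM in each MRC5_Mo library and 7.09, 8.13 and 7.57 FPKM in H196_Mo. HOXD9 held 69, 100 and 88 counts in H196_Mo.

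**Figure D3:**
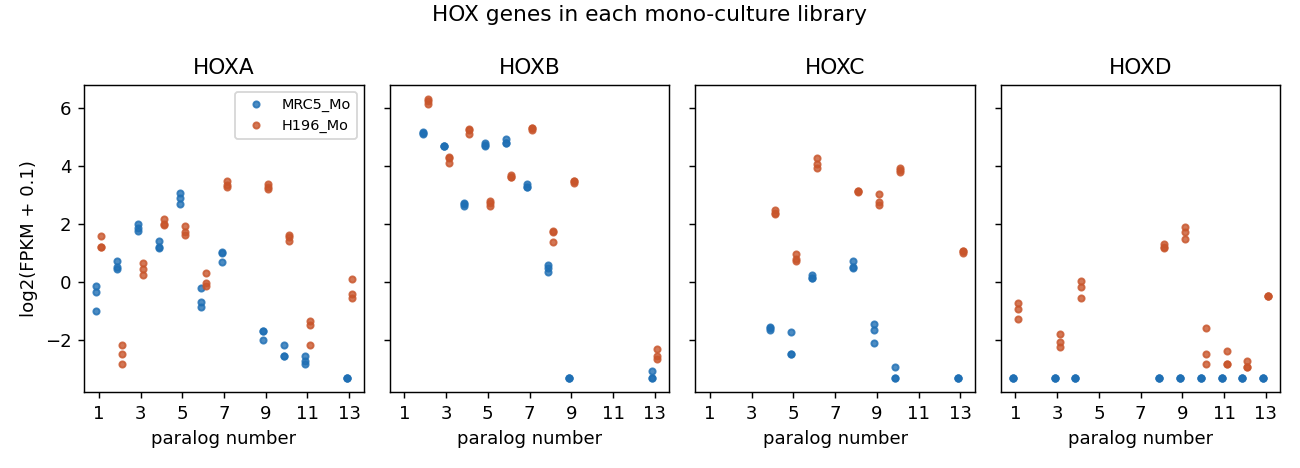
Level in each of the 6 libraries (y axis, log2 of FPKM + 0.1, 1 point per library) for the 36 listed HOX genes by paralog number (x axis), with 1 panel per cluster. The H196_Mo points lie above the MRC5_Mo points for every tested gene of paralogs 9 to 13, while both orders occur among the lower numbers of HOXA and HOXB, and HOXD stays at 0 FPKM in MRC5_Mo.

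Neuroendocrine genes were partly present in H196_Mo. Of 19 on the list, 4 were in neither table and 9 had enough counts to be tested. Of these 9, 6 were higher in H196_Mo, beside 31.4% of all tested genes. SCN3A was higher in MRC5_Mo and 2 did not pass. CHGB and SCG2, proteins of secretory granules, held 697, 722 and 678 and 723, 829 and 801 counts in H196_Mo, and 2 to 6 and 12 to 18 in MRC5_Mo. SYP, a protein of synaptic vesicles, held 287, 328 and 332 counts against 3, 2 and 7 (log2 fold change −5.97). These 3 genes lay at 19 ± 1.01, 21.5 ± 0.55 and 8.71 ± 0.298 FPKM in H196_Mo. The granule protein CHGA held 8, 5 and 2 counts in H196_Mo and was not listed for MRC5. DLL3, a NOTCH ligand of SCLC, was at 4.04 ± 0.524 against 0.357 ± 0.17 FPKM. UCHL1, often used as a neuroendocrine marker, was abundant in both lines at 561 ± 8.75 and 591 ± 24 FPKM and did not pass (log2 fold change 0.36).

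The 13 tested of 17 regulators of SCLC subtypes all passed, 6 higher in MRC5_Mo and 7 in H196_Mo. The shares over all tested genes were 30.9% and 31.4%. Most of these regulators were expressed in both lines. YAP1, a transcription coactivator of Hippo signalling, held 5175, 5191 and 5180 counts against 3628, 3347 and 3384 (log2 fold change 0.88). Its relative WWTR1 held 1181, 1194 and 1120 against 3924, 3922 and 3951 (−1.46). So each coactivator had the higher level in a different line. REST, the repressor of neuronal genes, differed by 0.68, and on library totals alone YAP1 and REST differed by 0.44 and 0.24, below the limit. The receptors NOTCH1, NOTCH2 and NOTCH3 were higher in MRC5_Mo by 1.93, 0.96 and 2.61, NOTCH2 by 0.52 on library totals, while their targets HES1 and HEY1 were higher in H196_Mo. HES1 held 505, 403 and 447 counts in H196_Mo against 21, 27 and 28. MYC was at 35.8 ± 2.53 against 12.8 ± 0.83 FPKM, NFIB at 4.86 ± 0.556 against 0.0533 ± 0.0321 FPKM, and SOX2 held 53, 46 and 32 counts against 1, 0 and 0. AXL, a receptor kinase, was at 48.1 ± 3.31 FPKM in H196_Mo and 182 ± 7.66 FPKM in MRC5_Mo.

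Of 24 epithelial genes 12 had enough counts to be tested. Of these, 6 were higher in MRC5_Mo and 4 in H196_Mo, beside 30.9% and 31.4% of all tested genes, and 2 did not pass. The keratins KRT8 and KRT18 pair in simple epithelia. KRT18 was at 159 ± 4.41 FPKM in H196_Mo and 75.8 ± 2.33 FPKM in MRC5_Mo (log2 fold change −0.63), and KRT8 did not pass (−0.44, but −0.88 and passing on library totals alone). KRT19 held 412, 436 and 391 counts in MRC5_Mo against 4, 5 and 5 (log2 fold change 6.72), and the junction protein JUP was at 13.6 ± 0.524 against 2.02 ± 0.256 FPKM. FOXA1, a factor of endoderm, held 92, 92 and 75 counts in H196_Mo against 3, 5 and 2. The lung factor NKX2-1 held 2, 2 and 5 counts in H196_Mo and was not listed for MRC5.

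**Figure D4:**
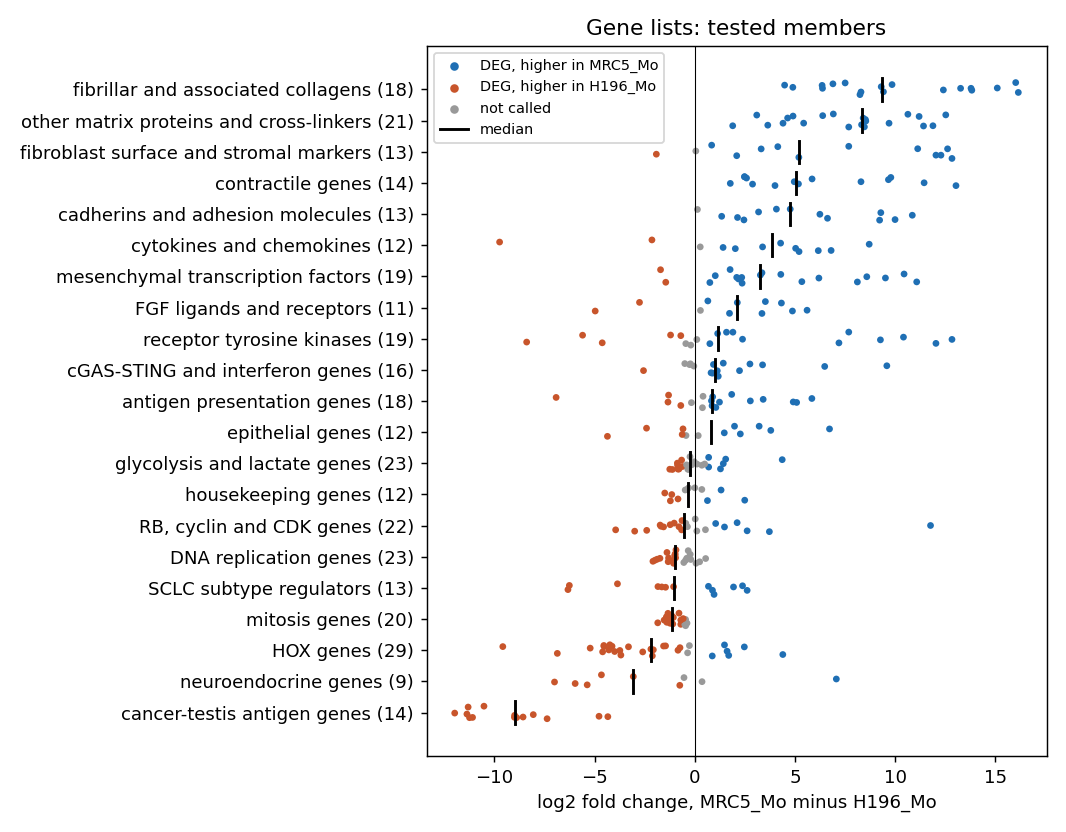
Log2 fold change of MRC5_Mo minus H196_Mo (x axis) for the tested genes of each list (y axis, number tested in brackets), 1 point per gene coloured by its call, with genes at 0 counts in 1 line drawn at their bound and a bar at the median. Collagen, matrix and contractile genes all lie on the MRC5_Mo side, cancer-testis antigen genes all lie on the H196_Mo side, and HOX genes lie on both sides.

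Genes of the cell cycle were higher in H196_Mo or did not pass. Of 23 DNA replication genes, 14 were higher in H196_Mo and 9 did not pass, with a median log2 fold change of −0.98 and summed levels of 759 ± 59.8 against 1910 ± 9.1 FPKM. Of 20 mitosis genes, 16 were higher in H196_Mo and 4 did not pass, with a median of −1.12 and sums of 564 ± 41 against 1570 ± 47.4 FPKM. No gene of either list was higher in MRC5_Mo. Over all tested genes, 31.4% were higher in H196_Mo and 30.9% in MRC5_Mo. On library totals alone, 20 replication genes and all 20 mitosis genes were higher in H196_Mo. MCM7, a subunit of the replicative helicase, held 12953, 15123 and 15327 counts against 2905, 3194 and 3501 (log2 fold change −1.88). The mitotic kinase AURKB held 1498, 1695 and 1657 counts against 444, 431 and 494 (−1.53). Both showed no overlap between the lines, as did 88.2% of all tested genes. MKI67, the standard proliferation marker, was at 30.6 ± 1.88 against 17.3 ± 1.5 FPKM with a log2 fold change of −0.39, short of the limit with TMM factors and past it on library totals alone (−0.83).

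RB and the inhibitors of cyclin-dependent kinases (CDKs) restrain the cell cycle. Of 22 tested genes 6 were higher in MRC5_Mo, 11 were higher in H196_Mo and 5 did not pass, beside 30.9% and 31.4% of all tested genes. On library totals alone the split was 6 and 13. CDKN1A, the CDK inhibitor p21, held 20792, 20933 and 20088 counts in MRC5_Mo against 1757, 2078 and 1917 (log2 fold change 3.72, SE 0.057, adjusted p = 2.77e-22). The INK4 inhibitors of CDK4 and CDK6 went the other way. CDKN2A held 2159, 2728 and 2621 counts in H196_Mo against 388, 398 and 373 (−2.40), and CDKN2B, CDKN2C and CDKN2D differed by −3.00, −1.73 and −1.69. RB1 was at 11.3 ± 0.49 and 21 ± 3.24 FPKM and did not pass (−0.45), though it passed on library totals alone (−0.90). The D cyclins activate CDK4 and CDK6. CCND2 held 1403, 1318 and 1268 counts in MRC5_Mo against 0, 0 and 1, and CCND1 was at 405 ± 17.4 against 127 ± 3.51 FPKM. E2F2, a factor that drives genes of S phase, held 904, 934 and 995 counts in H196_Mo against 46, 55 and 48 (−3.95).

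Glycolysis genes differed in both directions, and their split depended on the scaling. Their summed level was 13300 ± 280 FPKM in MRC5_Mo and 22100 ± 970 FPKM in H196_Mo. Of 23 tested, 6 were higher in MRC5_Mo, 8 were higher in H196_Mo and 9 did not pass. These counts lie near the shares over all tested genes, 30.9% and 31.4%, so they mark nothing particular to glycolysis. On library totals alone the split was 4 and 13. ALDOC, an aldolase, had the largest difference, with 412, 375 and 394 counts in MRC5_Mo against 18, 29 and 23 (log2 fold change 4.36). The glucose transporter SLC2A1 was higher in MRC5_Mo (1.54) and SLC2A3 was higher in H196_Mo (−0.86). PGK1 held 20598, 24529 and 25646 counts in H196_Mo against 8951, 8676 and 8880 (−1.12). The hexokinases also divided, with HK1 at 1.42 and HK2 at −0.84.

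Growth factor and receptor genes differed in both directions. Of 15 FGF genes 11 were tested, and 8 were higher in MRC5_Mo, beside 30.9% of all tested genes. FGF11 and FGFR4 were higher in H196_Mo, and FGFR3 did not pass. FGF7, which fibroblasts secrete to act on epithelium, held 1522, 1375 and 1241 counts in MRC5_Mo against 36, 44 and 24 (log2 fold change 5.60). FGF5 was at 54.7 ± 3.77 against 7.28 ± 0.405 FPKM, and FGFR1 at 59.2 ± 0.829 against 24 ± 0.451 FPKM. FGF17 was low in both lines, with 3, 2 and 5 counts in MRC5_Mo and 4, 5 and 3 in H196_Mo, and was not tested. FGFR4 held 228, 259 and 211 counts in H196_Mo against 31, 31 and 22 (−2.76). Among the 19 tested of 23 receptor tyrosine kinases, 11 were higher in MRC5_Mo and 5 in H196_Mo, while 3 did not pass. The shares over all tested genes were 30.9% and 31.4%. KIT, the receptor for stem cell factor, held 398, 397 and 412 counts in MRC5_Mo against 0, 1 and 1. FLT1, a VEGF receptor, held 364, 382 and 330 counts and was not listed for H196. MERTK, a relative of AXL, held 436, 480 and 457 counts in H196_Mo against 2, 0 and 1 (ratio 373, 95% counting interval 128 to 1810), and ERBB3 held 317, 340 and 373 against 6, 5 and 6.

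Antigen presentation genes were higher in MRC5_Mo for 11 of the 18 tested among 21, higher in H196_Mo for 4, and 3 did not pass. The shares over all tested genes, here and for the cGAS-STING list below, were 30.9% and 31.4%. B2M, the light chain of class I molecules, held 15844, 15095 and 13679 counts against 2545, 2581 and 2878 (log2 fold change 2.77, SE 0.062, adjusted p = 1.14e-19). HLA-B and HLA-C differed by 1.23 and 1.05. These genes are similar and differ between donors, so their counts are uncertain. NLRC5, which activates class I genes, held 564, 502 and 515 counts against 14, 25 and 18. HLA-F went the other way with 252, 343 and 345 counts in H196_Mo against 3, 1 and 2, as did TAP2, PSMB9 and HLA-DMB.
In the cGAS-STING and interferon list, 11 of the 16 tested among 21 were higher in MRC5_Mo, 1 was higher in H196_Mo and 4 did not pass, and on library totals alone the split was 8 and 4. The DNA sensor CGAS held 777, 678 and 560 counts in H196_Mo against 82, 88 and 108 (−2.56), while its partner STING1 held 1743, 1788 and 1783 in MRC5_Mo against 174, 226 and 224 (3.38). Sensor and adaptor thus had their higher levels in different lines. IFI16, a second DNA sensor, held 1869, 1747 and 1633 counts against 3, 2 and 3, and TREX1, which degrades DNA in the cytosol, held 66, 55 and 54 against 2, 0 and 0.

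Genes used as references differed about as often as other genes. Of 12 tested, 3 were higher in MRC5_Mo and 4 in H196_Mo, beside 30.9% and 31.4% of all tested genes, and 5 did not pass. On library totals alone the split was 2 and 7. ACTB held 183211, 193728 and 197410 counts against 38479, 44234 and 42772 (log2 fold change 2.49), and TBP held 207, 233 and 217 against 748, 744 and 794 (−1.50). GAPDH was at 6270 ± 167 and 10600 ± 536 FPKM with a log2 fold change of −0.31, short of the limit, and −0.75 on library totals alone, past it. POLR2A had a log2 fold change of 0.00 and overlapping groups. By FPKM, the highest genes of MRC5_Mo were the actin-binding peptide TMSB10 (10300 ± 172), the lectin LGALS1 (8240 ± 135) and ACTB (6680 ± 291), and those of H196_Mo were GAPDH and the ribosomal protein genes RPS18 (9480 ± 941) and RPS27 (8860 ± 519).

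The second comparison used 6 other libraries of the same lines, grown together across the insert. Of 13912 genes tested there, 4541 were higher in MRC5_CoH196 (32.6%) and 4791 were higher in H196_Co (34.4%). Among the DEGs of the mono-cultures, 3578 of the 4172 higher in MRC5_Mo (85.8%) were also higher in MRC5_CoH196, and 3646 of the 4241 higher in H196_Mo (86%) were also higher in H196_Co. DEGs in opposite directions numbered 13 and 44. Across the 13518 genes, the log2 fold changes of the comparisons correlated at r = 0.96 (Spearman's rho 0.921), as a description over genes of the same lines and tables. All 18 collagens, all 14 contractile genes and all 14 cancer-testis genes kept their direction as DEGs in co-culture. The fibroblast libraries from co-culture held some counts of genes on in H196_Mo and at the floor in MRC5_Mo, cancer-testis genes among them, with a sum over the 10 most abundant of 12.4, 12.9 and 0.887 CPM against 0.267, 0.319 and 0.216 CPM in MRC5_Mo, and the origin of these reads was not tested. COL1A1 was at 785 ± 39.6 FPKM in MRC5_CoH196 and 0.317 ± 0.0462 FPKM in H196_Co, with a log2 fold change between the lines of 11.78. In co-culture, with TMM factors, 21 of 23 replication and 20 of 20 mitosis genes were higher in H196_Co. In mono-culture 14 of 23 and 16 of 20 were higher in H196_Mo with TMM factors. On library totals alone these were 20 of 23 and 20 of 20. With TMM factors the median log2 fold changes were −0.98 and −1.12 in mono-culture and −1.70 and −1.61 in co-culture.

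Among members of the lists, 2 genes were DEGs in opposite directions. The neuronal enolase ENO2 held 914, 916 and 884 counts in MRC5_Mo against 1720, 1948 and 1931 in H196_Mo, and 11495, 11011 and 12535 in MRC5_CoH196 against 5829, 5502 and 5122 in H196_Co. Its line difference was −0.75 in mono-culture and 1.45 in co-culture. The glucose transporter SLC2A3 went from −0.86 to 1.16, with 1135, 1113 and 1121 counts in MRC5_Mo against 2360, 2525 and 2599 in H196_Mo, and 13337, 11606 and 13462 in MRC5_CoH196 against 7904, 7637 and 6533 in H196_Co. Both genes had higher counts in co-culture than in mono-culture in each line.

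**Figure D5:**
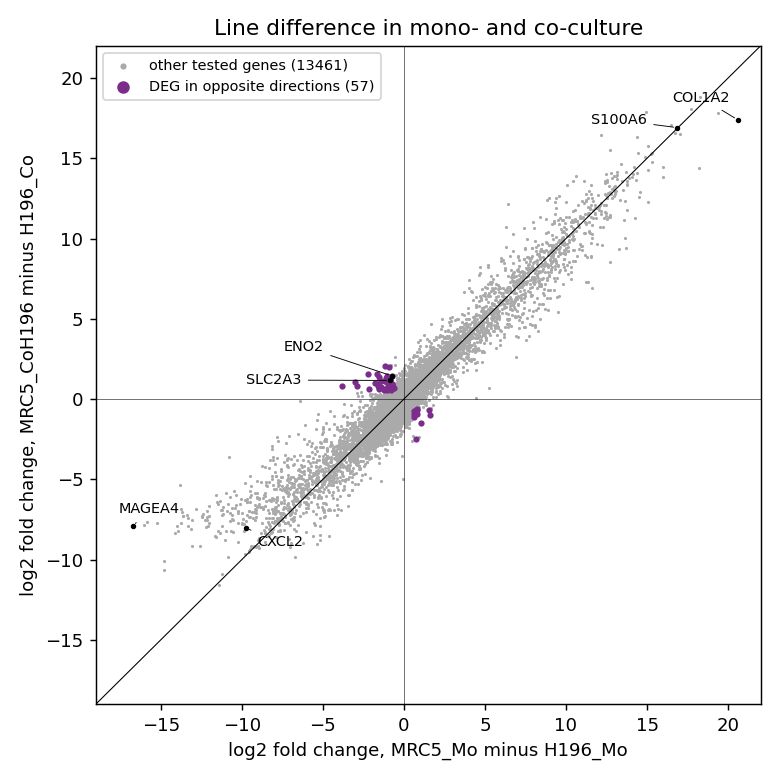
Line difference in co-culture (y axis, log2 fold change of MRC5_CoH196 minus H196_Co) against the line difference in mono-culture (x axis, MRC5_Mo minus H196_Mo), 1 point per gene, with the diagonal of equal values. Most genes follow the diagonal, the 57 genes that were DEGs in opposite directions, ENO2 and SLC2A3 among them, lie near the centre, and fitted values of genes at 0 counts in 1 line, such as MAGEA4, are no bound.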

How the data were processed

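RNA was enriched with oligo(dT) beads and sequenced on a BGISEQ-500. Per the study's methods, the authors aligned reads to the genome (HISAT, GRCh38.p13) and to reference transcripts (Bowtie2), and the deposited values are RSEM expected counts and FPKM, in 1 table per line. The submitters' processing notes name RSEM 1.3.1, HISAT2 2.1.0 and Bowtie2 2.3.4.3. Another 30 columns of TPM and normalised counts per sample were not used, nor were columns of the authors' own comparisons (log2 fold changes and p-values from DESeq2 within each line's table). The tables were joined by gene identifier, with a gene absent from one taken as 0 counts.

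Expected counts were rounded and fitted in edgeR 4.0.16 (R 4.3.3) with filterByExpr, TMM factors and the quasi-likelihood test on the 6 libraries, Benjamini-Hochberg adjustment and no replicate block. Co-culture was fitted on all 15 libraries. Alternatives used DESeq2 1.42.0, limma 3.58.1, other scalings, filters and limits, and each library left out. The procedure was tested on simulated data with few changed genes, balanced in direction, so that test does not bear on the choice of scaling. The named genes were the 10 with the largest differences, the 10 most abundant at the other line's floor and the 10 with the highest FPKM per line, and members of 22 lists, some of which are not reported here. Members and lists were chosen with earlier results of these data known. "At least" folds set 3 counts per library for a gene at 0, and low counts have exact intervals at 95%.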

Additional observations from a re-analysis of the deposited data

Results flagged for a closer look

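Among members of the lists, 2 genes were DEGs in opposite directions in mono- and co-culture. Over all genes tested in both, such DEGs numbered 13 (higher in MRC5_Mo) and 44 (higher in H196_Mo). ERRFI1 went from −3.04 to 1.06 and HMOX1 from 0.76 to −2.50. List members that kept their direction changed too, LOX from 8.40 to 11.35 and COL1A1 from 13.78 to 11.78. The 2 genes below were picked for their turn, so the test of their change is not independent of that choice. The log2 fold change of MRC5 minus H196 was −0.75 (SE 0.054) in mono-culture and 1.45 (SE 0.055) in co-culture for ENO2. The change of 2.20 passed the test of the difference itself (edgeR's quasi-likelihood test over all genes, adjusted p = 1.7e-17). For SLC2A3 the values were −0.86 (SE 0.051) and 1.16 (SE 0.061), a change of 2.02 (adjusted p = 8.12e-16).

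The fibroblast libraries that had shared an insert with H196 cells held reads of genes found in H196_Mo but not in MRC5_Mo. The 10 most abundant genes on in H196_Mo and at the floor in MRC5_Mo summed to 12.4, 12.9 and 0.887 CPM in MRC5_CoH196, a mean of 8.72 ± 6.79 CPM, or 0.256% of their level in H196_Mo. Replicate 3 was far lower than the other libraries of its group. The same sum was 0.267, 0.319 and 0.216 CPM in MRC5_Mo. The origin of these reads was not tested. They bear on the co-culture values of genes at the floor in MRC5_Mo, such as MAGEA4.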

How the results depend on the processing

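The alternatives were checked for 159 tested genes named in the report, without ERRFI1 and HMOX1. None reversed a gene of these that passed in the main fit or in the alternative. Genes that passed in neither could change sign. On library totals alone UCHL1 went from 0.36 to −0.08 and ICAM1 from 0.13 to −0.31. Over these genes and alternatives, 3235 values kept their side of the limit, 42 lost the call and 28 gained one. DEGs higher in MRC5_Mo numbered 2602 with limma on log2(FPKM + 1), against 4172. Strong differences numbered 448 in MRC5_Mo and 212 in H196_Mo under that test, and 731 and 427 with a minimum of 10 CPM in 3 libraries, where fewer genes were tested. Genes on in MRC5_Mo fell to 117 when the other line had to hold 0 counts, and those on in H196_Mo to 62. The H196_Mo set numbered 190 with a minimum of 5 CPM, 59 with 20 CPM and 201 with up to 10 counts allowed in the other line. Leaving out each library in turn gave 4212 to 4277 DEGs higher in MRC5_Mo and 4254 to 4301 higher in H196_Mo. The replicate numbers did not pair the libraries, with correlations of deviations between same-numbered libraries from −0.0416 to −0.0127. With a replicate block 4169 and 4229 DEGs were found, with 1217 and 1032 strong differences, and 4540 and 4790 in co-culture. The block changed no call among the 159 genes checked. Genes under 3 counts in every library are limited by depth.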
